A study of Mus musculus with 18 samples.

Results

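The genes described here are 10 members of the Nodal and bone morphogenetic protein (BMP) pathways, chosen by symbol: Nodal, its antagonists Lefty1 and Lefty2, its co-receptor Tdgf1, the feedback inhibitors Smad7 and Skil, the ligand Bmp4 and the target genes Id1, Id2 and Id3. All 10 were found among the 46078 genes of the count table and all 10 passed the filter on low counts, which left 13438 protein-coding genes to test. They were measured by RNA sequencing in E14 mouse embryonic stem cells (mESCs), a wild-type line of 129 background, kept for 24 h in serum and LIF on fibronectin-coated StemBond hydrogels. These polyacrylamide gels had a stiffness of about 750 Pa (soft) or 160 kPa (stiff) and held 16 mM (low), 48 mM (mid) or 80 mM (high) of the co-factor AHA, which sets how firmly extracellular matrix is tethered to the gel. Each of the 6 groups had 3 libraries of the same line, medium, coating and time, and no group was grown off a gel.

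Nodal and BMPs are secreted ligands of the TGF-beta family that act through paired serine/threonine kinase receptors. Nodal needs the co-receptor encoded by Tdgf1 (Cripto) and signals through Smad2 and Smad3, and many of the genes it switches on, among them the Lefty genes, Smad7 and Skil, restrain the pathway in turn. BMP ligands signal through Smad1 and Smad5 and switch on the Id genes, whose products block differentiation factors of the helix-loop-helix class. In mESCs grown in serum and LIF the BMP branch is known to help hold cells undifferentiated, and Nodal signalling is known to be active.

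Gene counts per library ranged from 5850621 to 9290261. Library 1 of the soft, high AHA group was set aside because spike-in RNAs took 1.37% of its counts against 0.607 to 0.725% in the other 17, which left 8 soft and 9 stiff libraries. The labels do not say whether libraries of a group came from separate cultures, so p-values measure only the spread between these libraries. The stem cell identity given by the labels was borne out by Pou5f1, with a mean of 546 CPM (counts scaled to the same total in each library). Of the 7 general and naive pluripotency markers, 6 (all but Pou5f1) passed the test as higher on soft substrates. So did 3.77% of all tested genes. The 7 markers summed to 1802 to 1977 CPM on soft and 1598 to 1730 CPM on stiff substrates. Summed primitive endoderm markers were 32.1 to 44.5 CPM on soft and 32.5 to 41.2 CPM on stiff substrates, and none of the 6 passed the test. Mesoderm markers summed to 23.1 to 36.8 and 21.9 to 39.6 CPM, and neuroectoderm markers to 16.2 to 23.8 and 11.1 to 19.8 CPM, with no call among them. Fibroblast markers summed to 114 to 197 CPM on soft and 166 to 237 CPM on stiff substrates, of which only Col1a1 passed the test (log2 fold change −0.49 ± 0.085 SE, adjusted p = 0.00282). Reads not aligned were 36.0 to 36.7% of the column sums on soft and 36.0 to 38.5% on stiff substrates. No listed marker was at 0 in every library, and the part of these measures in the results on the pathway genes was not tested. In bulk RNA, fewer cells of a type and less RNA per cell cannot be told apart.

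All 10 genes were expressed on every substrate, and their levels per length covered a wide range. Scaled to exon length, Tdgf1 stood highest with 89.4 ± 6.59 CPM per kb (SD, n = 17), followed by Id1 with 78.8 ± 5.53 CPM per kb. Tdgf1 exceeded Id1 in 16 of the 17 libraries. Skil (34.9), Smad7 (33.7), Id2 (30.7) and Id3 (29.8 CPM per kb) formed a middle range in which neighbours changed places: Skil was above Smad7 in 12, Smad7 above Id2 in 14 and Id2 above Id3 in 10 of the 17 libraries. Nodal itself lay lower, with 23.8 ± 2.21 CPM per kb, and was below Id3 in every library. Bmp4 (14.9 ± 2.11), Lefty1 (10.3 ± 1.95) and Lefty2 (6.37 ± 0.913 CPM per kb) were the lowest.

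**Figure D1:**
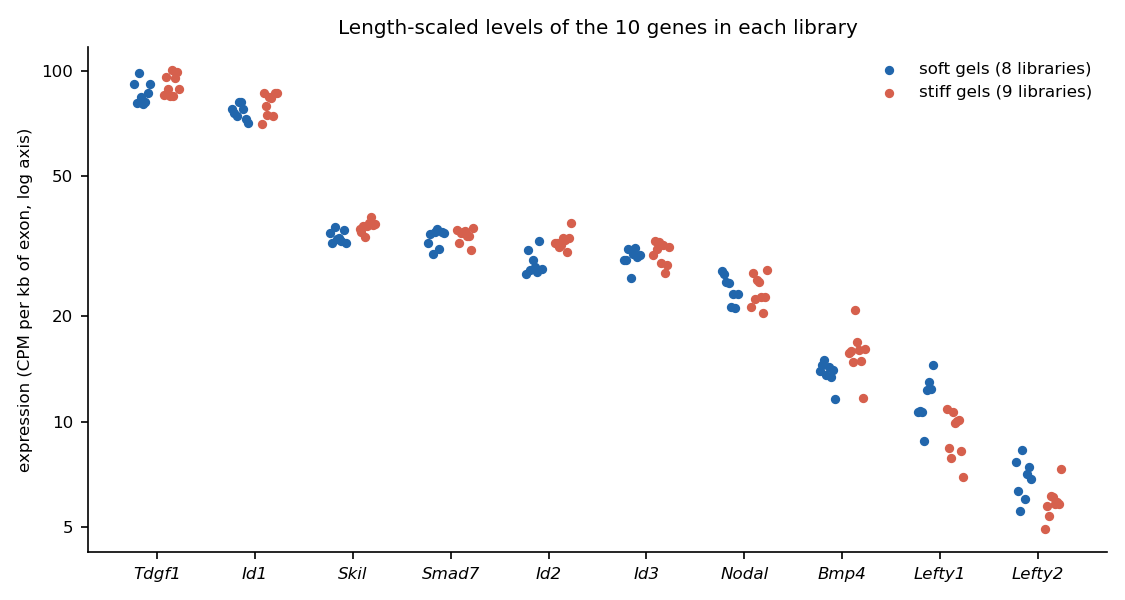
Expression of the 10 genes in each of the 17 libraries used, as CPM per kb of exon on a log axis, with soft libraries in blue and stiff libraries in red. The co-receptor gene Tdgf1 and the BMP target Id1 stand above all other members in each library, and Lefty2 has the lowest mean.

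The first comparison asked whether substrate stiffness changed these genes, taking the mean of the soft minus stiff differences at the 3 AHA concentrations. By this measure 3 of the 10 genes passed edgeR's quasi-likelihood test at an adjusted p under 0.05: Lefty1 was higher on soft substrates, and Id2 and Skil were lower. Over all tested genes the same test called 8.59%, with 3.77% higher and 4.82% lower on soft substrates. The median log2 fold change of the members was −0.053 against 0.0011 over all tested genes, and the median absolute value was 0.091 against 0.086. At an unadjusted p under 0.05, 6 of the 10 members passed, compared with 20.5% of all tested genes. The members were chosen with earlier results of these data known, so these comparisons with all genes are not independent of that choice. The soft and stiff libraries overlapped for every member, where 1.27% of all tested genes showed no overlap between the 8 soft and the 9 stiff libraries.

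**Figure D2:**
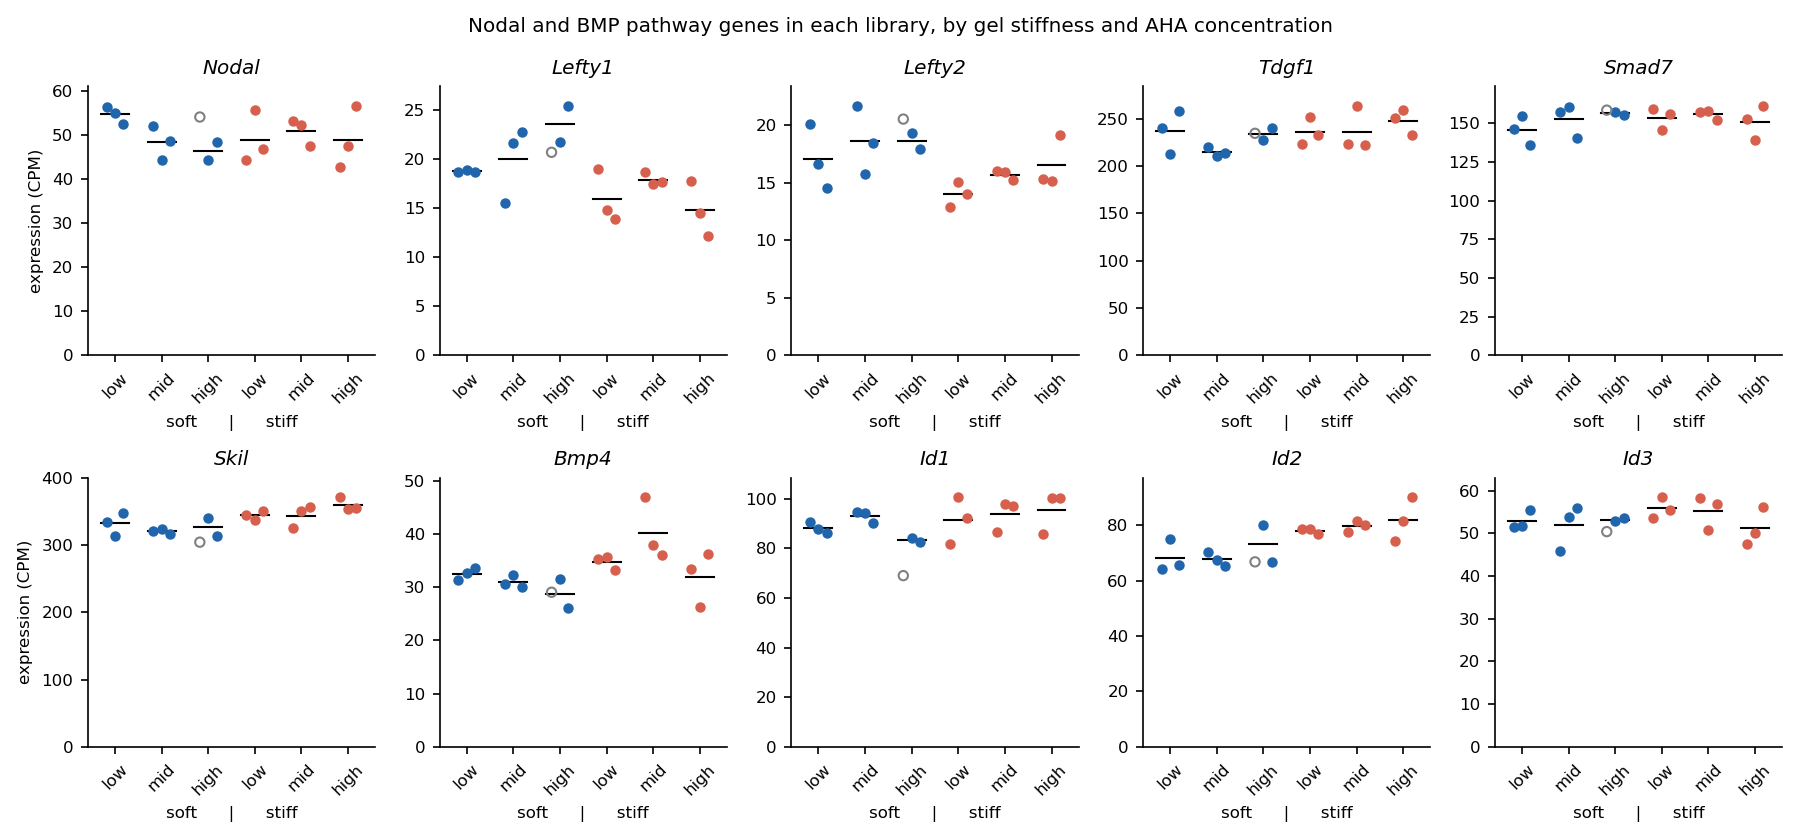
Expression (CPM, axes from 0) of each gene in every library, by stiffness (soft blue, stiff red) and AHA concentration, with black lines at group means of the libraries used and the library set aside as an open grey circle. Lefty1 lies higher and Id2 and Skil lower on soft substrates, with overlapping libraries in each case.

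Nodal, the ligand that gives the pathway its name, showed no detectable difference between soft and stiff substrates. Its levels on soft substrates ran from 44.2 to 56.4 CPM with a median of 50.3 CPM. On stiff substrates they ran from 42.8 to 56.6 CPM with a median of 47.4 CPM. The ranges nearly coincided, and the average log2 fold change was 0.0051 ± 0.061 (SE, 95% interval −0.12 to 0.13, adjusted p = 0.977). At low AHA the soft libraries had 56.4, 55.1 and 52.5 CPM and the stiff libraries 44.4, 55.7 and 46.7 CPM, and this difference did not pass the test either (log2 fold change 0.17 ± 0.10, adjusted p = 0.506). Tdgf1, which encodes the cell surface co-receptor that Nodal requires, had 211 to 259 CPM on soft and 222 to 263 CPM on stiff substrates, with medians of 224 and 233 CPM. Its average log2 fold change was −0.069 ± 0.035 (adjusted p = 0.239).

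Lefty1 and Lefty2 encode secreted proteins that bind Nodal and its co-receptor and block signalling. Lefty1 had 15.5 to 25.4 CPM on soft substrates (median 20.2 CPM) and 12.2 to 19.03 CPM on stiff substrates (median 17.4 CPM). The highest stiff library was exceeded by 4 of the 8 soft ones, and 4 of the 9 stiff libraries were under the lowest soft one. The average log2 fold change was 0.34 ± 0.097 (1.27-fold, 95% interval 0.15 to 0.54, adjusted p = 0.0104). Lefty2 had 14.5 to 21.7 CPM on soft substrates (median 18.2 CPM) and 12.9 to 19.1 CPM on stiff substrates (median 15.2 CPM). Its estimate had the same sign, 0.24 ± 0.10 (95% interval 0.040 to 0.44), but did not pass the test (adjusted p = 0.136).

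The transcripts of Lefty1 (chr1:180935022-180938400, + strand, GRCm38) and of its neighbour Lefty2 (chr1:180893108-180899103, + strand) match at 91.4% of bases over 1157 bases, so how reads were split between them is uncertain. With both genes counted as 1 row, a choice made after seeing the data, the soft libraries had 33.2 to 43.3 CPM (median 38.0 CPM) and the stiff libraries 27.9 to 34.7 CPM (median 31.9 CPM). In that row 7 of the 8 soft libraries exceeded the highest stiff one, and the average log2 fold change was 0.29 ± 0.070 (adjusted p = 0.00159). Tdgf1 has 3 processed pseudogenes with similar transcripts, of which Gm13455 and Tdgf1-ps2 match at 91.1 and 90.4% and had 0 and 15 counts over all libraries. The closest, Tdgf1-ps1, matches at 98.8% over 512 bases and had 13.9% as many counts as Tdgf1, in near-equal shares on soft (22.7 CPM over all gene counts) and stiff substrates (23.0 CPM). Adding the pseudogene counts to Tdgf1 gave an average log2 fold change of −0.067 ± 0.034 (adjusted p = 0.247).

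Smad7 and Skil act inside the cell to restrain the pathway. Smad7 competes with receptor-activated SMADs at the receptor, and Skil (SnoN) represses transcription by SMAD complexes. Smad7 had 136 to 161 CPM on soft and 139 to 161 CPM on stiff substrates, and its average log2 fold change was −0.022 ± 0.037 (95% interval −0.095 to 0.051, adjusted p = 0.812). Skil, on chromosome 3, ran from 313 to 347 CPM on soft substrates (median 322 CPM) and from 325 to 370 CPM on stiff substrates (median 350 CPM). The lowest stiff library was above 5 of the soft ones, and the highest soft library was below 6 of the stiff ones. The difference was small, −0.097 ± 0.028 on the log2 scale with an expression that fell by 6.52% in the fit (95% interval −0.15 to −0.043, adjusted p = 0.0108).

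Among the BMP genes, Id2 was the only member to pass the test. Bmp4 had 26.0 to 33.6 CPM on soft substrates (median 31.4 CPM) and 26.2 to 46.8 CPM on stiff substrates (median 35.7 CPM). Of the 9 stiff libraries, 6 lay above every soft library. The average log2 fold change of Bmp4 was −0.21 ± 0.074 (95% interval −0.36 to −0.064), just short of the threshold (adjusted p = 0.0559). An antisense gene, Gm15217, covers 3.96% of the exon bases of Bmp4, and whether reads were counted by strand is not given in the sources used here.

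Id1, Id2 and Id3 are direct targets of BMP signalling. Id2 had 64.0 to 80.0 CPM on soft substrates (median 67.0 CPM) and 74.3 to 89.97 CPM on stiff substrates (median 78.6 CPM). The lowest stiff library was above 6 of the soft ones, and the remaining 2, library 2 of low AHA (75.1 CPM) and library 2 of high AHA (80.0 CPM), reached the stiff range. The average log2 fold change was −0.19 ± 0.050, by which expression fell by 12.5% (95% interval −0.29 to −0.094, adjusted p = 0.00417). Id1 ran from 82.5 to 94.5 CPM on soft and from 81.7 to 101 CPM on stiff substrates, with a log2 fold change of −0.084 ± 0.046 (adjusted p = 0.304). Id3 ran from 45.8 to 55.9 CPM on soft and from 47.4 to 58.4 CPM on stiff substrates, with a log2 fold change of −0.036 ± 0.058 (adjusted p = 0.802). The differences between Id2 and the other Id genes were not tested.

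The 250 bases before the RefSeq start are shown for Id2, which passed the test, and for Id3, which did not. They come from RefSeq (GRCm38.p6), where 5 of the 10 members had an entry. Capitals mark GTCT on either strand (AGAC on the reverse), the short SMAD box, and GGCGCC, a GC-rich motif bound by SMADs of the BMP branch, which reads the same on both strands. The motifs do not overlap each other in these windows. The Id2 window is chr12:25096093-25096342 on the - strand and the Id3 window chr4:136143572-136143821 on the + strand. Both lie inside the longer GENCODE genes used for the positions of members (chr12:25093799-25097140 and chr4:136143497-136145755).
Id2: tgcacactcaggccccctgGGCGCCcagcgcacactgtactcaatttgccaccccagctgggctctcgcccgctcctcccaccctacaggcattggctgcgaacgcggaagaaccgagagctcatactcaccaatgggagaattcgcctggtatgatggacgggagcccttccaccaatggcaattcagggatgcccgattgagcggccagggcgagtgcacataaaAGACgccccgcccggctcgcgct
Id3: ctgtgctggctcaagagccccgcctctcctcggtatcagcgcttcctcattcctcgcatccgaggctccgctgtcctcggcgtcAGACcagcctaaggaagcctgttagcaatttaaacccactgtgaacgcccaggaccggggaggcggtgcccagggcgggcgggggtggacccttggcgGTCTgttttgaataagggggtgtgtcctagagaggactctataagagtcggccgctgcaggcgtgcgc
Id2 held 1 GTCT match and 1 GGCGCC match, and Id3 held 2 GTCT matches and 0 GGCGCC matches. Among all 32851 windows of the same length, 82.9% held GTCT and 9.59% held GGCGCC on either strand. Of the other members with an entry, Tdgf1 held 3 GTCT matches, Bmp4 held 1 and Nodal held 0, and none of them held GGCGCC. Only Id2 among the 5 members with an entry passed the test, so motifs and test results cannot be related here. The Foxh1 motif TGTGGATT, searched on both strands for the partner of SMADs in the Nodal branch, was in 0 of the 5 windows and in 0.718% of all windows.

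Stiffness was next compared at each AHA concentration separately. Of all tested genes, 13.1% at low, 13.6% at mid and 10.5% at high AHA had an unadjusted p under 0.05. At low AHA, 0 of the 10 members passed edgeR's test (1 at an unadjusted p under 0.05, and 0 by DESeq2), while 3.04% of all tested genes did. At mid AHA it was again 0 members (4 at an unadjusted p under 0.05, 0 by DESeq2), against 2.86% of all tested genes. At high AHA 1 member passed, Lefty1 (3 at an unadjusted p under 0.05, 0 by DESeq2), against 0.841% of all tested genes. There the 2 soft libraries had 21.7 and 25.4 CPM and the 3 stiff libraries 17.8, 14.5 and 12.2 CPM, with no overlap, as for 24.7% of all tested genes in these 5 libraries. The log2 fold change was 0.65 ± 0.18 (1.57-fold, adjusted p = 0.0444), compared with 0.23 ± 0.17 at low AHA (soft 18.7, 18.9 and 18.7 CPM, stiff 19.03, 14.8 and 13.8 CPM) and 0.15 ± 0.16 at mid AHA (soft 15.5, 21.6 and 22.7 CPM, stiff 18.7, 17.4 and 17.6 CPM). The test of whether the 3 differences were unequal did not pass for Lefty1 (interaction adjusted p = 0.811). The library set aside had 20.7 CPM of Lefty1.

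Bmp4 had its lowest estimate at mid AHA, −0.37 ± 0.12 (adjusted p = 0.0659). The soft libraries had 30.5, 32.2 and 30.1 CPM and the stiff libraries 46.8, 37.8 and 36.0 CPM, with no overlap, as for 18% of all tested genes between these groups of 3. At high AHA Bmp4 overlapped, with 31.5 and 26.0 CPM on soft and 33.5, 26.2 and 36.2 CPM on stiff substrates. Id2 had estimates of −0.19 ± 0.085 at low, −0.24 ± 0.083 at mid and −0.15 ± 0.092 at high AHA, and Skil −0.052 ± 0.046, −0.10 ± 0.046 and −0.14 ± 0.051. Neither gene passed at a single AHA concentration. Across the 3 concentrations, 2 members had a positive estimate each time (Lefty1 and Lefty2) and 4 had a negative one each time (Skil, Bmp4, Id1 and Id2). For Id1 these were within their standard error at low (−0.044 ± 0.078) and mid AHA (−0.018 ± 0.076). The share of all tested genes that kept the same sign was not counted. The interaction test called 0 members (0 at an unadjusted p under 0.05 by edgeR, and 0 by DESeq2, which gave 5 of them no adjusted p), against 0.0298% of all tested genes. At an unadjusted p under 0.05 the share of all tested genes was 6.71%.

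**Figure D3:**
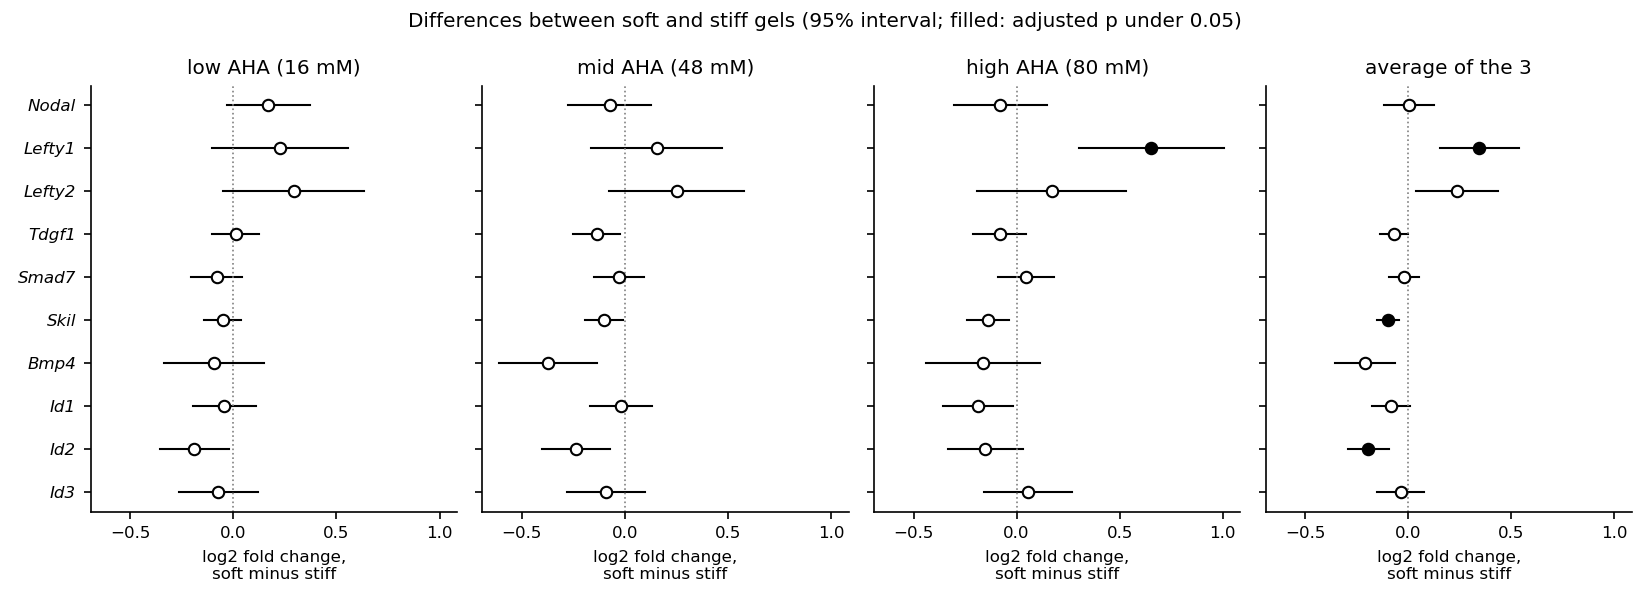
Log2 fold change of each gene, soft minus stiff, at low, mid and high AHA and as the average of the 3, with 95% intervals and filled points for an adjusted p under 0.05. Only Lefty1 at high AHA is filled in the single comparisons, and Lefty1, Skil and Id2 are filled in the average.

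The 3 calls of the average were lost without library 3 of soft, high AHA, which left 1 library in that group, assumed to vary like the others. Without it the adjusted p was 0.057 for Lefty1 (log2 fold change 0.31), 0.0642 for Id2 (−0.15) and 0.103 for Skil (−0.078), so that 0 members passed. With library 3 set aside in place of library 1, a choice made after seeing the data, all 3 passed. Skil was also lost without library 2 of soft, low AHA (adjusted p = 0.0629). Bmp4 passed without library 2 of soft, high AHA (adjusted p = 0.0286), library 3 of stiff, mid AHA (0.0344) or library 2 of stiff, high AHA (0.0205), with all 18 libraries (0.0419), and with library 2 of soft, high AHA set aside in place of library 1 (0.0266). The Lefty1 call at high AHA was lost without library 2 (adjusted p = 0.0865) or 3 (0.39) of soft, high AHA and without library 2 (0.107) or 3 (0.287) of stiff, high AHA, and also by DESeq2 (0.0824), with all annotated genes fitted (0.0594), with only the groups compared (0.0699) and with library 3 of soft, high AHA set aside in place of library 1 (0.139), where Id1 passed instead. With Lefty1 and Lefty2 counted as 1 row it was 0.42 ± 0.13 on the log2 scale (adjusted p = 0.0992).

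The second comparison asked whether the AHA concentration changed the genes at a fixed stiffness. Of all tested genes, 8.51% (high against low), 6.81% (high against mid) and 6.10% (mid against low AHA) had an unadjusted p under 0.05 on soft substrates. These shares were 6.04%, 5.83% and 4.99% on stiff substrates. On soft substrates 0 of the 10 members passed any of the 3 contrasts (2 at an unadjusted p under 0.05 by edgeR, and 0 by DESeq2, which gave no adjusted p for 3 in high against low and 5 in high against mid AHA), where the test called 0.253% of all genes for high against low, 0.067% for high against mid and 0% for mid against low AHA. The 2 genes were Nodal and Tdgf1. Nodal had −0.24 ± 0.11 for high minus low AHA (44.2 and 48.4 CPM at high and 52.5 to 56.4 CPM at low AHA, adjusted p = 0.539). The library set aside from soft, high AHA had 54.05 CPM of Nodal, inside the low AHA range. Tdgf1 had −0.14 ± 0.057 for mid minus low AHA (221, 211 and 214 CPM at mid and 240.3, 212 and 259 CPM at low AHA, adjusted p = 0.715). On stiff substrates 0 members passed (1 at an unadjusted p under 0.05, 0 by DESeq2), against 0.00744% of all genes for high against low and for high against mid AHA and 0% for mid against low. That gene was Bmp4, with −0.31 ± 0.12 for high minus mid AHA (adjusted p = 0.758). Averaged over both stiffnesses, high minus low AHA gave member estimates from −0.14 (Bmp4) to 0.19 (Lefty2), and 0 members passed (0 at an unadjusted p under 0.05 by edgeR, and 0 by DESeq2, which gave 7 of them no adjusted p), against 0.112% of all tested genes. At an unadjusted p under 0.05 the share of all tested genes was 8.64%.

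Over the 6 groups, the highest and the lowest group mean of a member differed by 1.07 times (Smad7) to 1.59 times (Lefty1). Lefty1 ran from 23.6 ± 2.61 CPM (SD, n = 2) on soft, high AHA down to 14.8 ± 2.82 CPM (SD, n = 3) on stiff, high AHA, with the 3 soft groups above the 3 stiff groups and every pair of neighbours in that order overlapping. Lefty2 had the same split, from 18.6 CPM on soft, mid and soft, high AHA to 14.0 ± 1.09 CPM (SD, n = 3) on stiff, low AHA. For Id2 and Skil all 3 stiff groups stood above all 3 soft groups. Id2 ran from 81.9 ± 7.85 CPM (SD, n = 3) on stiff, high AHA to 67.6 ± 2.50 CPM (SD, n = 3) on soft, mid AHA, and Skil from 359 ± 9.48 CPM to 320 ± 3.68 CPM on the same groups. Nodal, Tdgf1, Smad7, Bmp4, Id1 and Id3 mixed soft and stiff groups in their order.

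Other genes of the pathways were taken from a list of 59 genes by role, of which 53 could be tested. Gdf1 was not analysed here, and Acvr1c, Cfc1, Cer1, Bmp5 and Grem1 had at most 9 counts in a library. In the average over AHA, 5 of the 53 were lower and 0 higher on soft substrates, where the test called 4.82% of all genes lower and 3.77% higher, and the median log2 fold change of the list was −0.021. None of the 53 passed for high minus low AHA averaged over stiffness (0 by edgeR, 2 at an unadjusted p under 0.05, and 0 by DESeq2, which gave 48 of them no adjusted p). Of all tested genes, 8.64% had an unadjusted p under 0.05 in this contrast.

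The 5 genes were 3 ligands and 2 targets or regulators. Tgfb2, a TGF-beta ligand, had 18.9 to 34.3 CPM on soft substrates (median 23.4 CPM) and 25.3 to 38.5 CPM on stiff substrates (median 35.7 CPM), a log2 fold change of −0.48 ± 0.079 (adjusted p = 8.63e-07). Its estimates were −0.63 ± 0.13 at low, −0.75 ± 0.13 at mid and −0.067 ± 0.14 at high AHA, with an interaction adjusted p of 0.300. Gm29491 on the opposite strand covers 2.14% of its exon bases. Inhba, which encodes the activin A subunit, had only 3 to 20 counts in a library, or 0.566 to 2.37 CPM on soft and 1.62 to 3.70 CPM on stiff substrates (−0.98 ± 0.30, adjusted p = 0.019). Its call was lost without library 2 of soft, low AHA (adjusted p = 0.0549), library 3 of soft, high AHA (0.0641) or library 2 of stiff, low AHA (0.057).

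Bmp8b, a BMP ligand, had 7.68 to 16.2 CPM on soft and 13.7 to 23.2 CPM on stiff substrates, and 8 of the 9 stiff libraries lay above every soft one (−0.68 ± 0.11, adjusted p = 7.75e-07). Ppie and Gm17244 on the opposite strand cover 12.2% of its exon bases, so its counts are uncertain. Pmepa1, a membrane protein that dampens SMAD signalling, had medians of 32.0 and 40.8 CPM (−0.30 ± 0.070, adjusted p = 0.00111). Dusp9, a BMP-induced phosphatase of ERK, had medians of 214 and 248 CPM (−0.21 ± 0.032, adjusted p = 5.49e-08).

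Receptors and SMADs act between these ligands and targets. Tested here were 5 Nodal, activin or TGF-beta receptors, 6 BMP receptors or co-receptors, 4 BMP SMADs and 4 genes of the SMAD2/3 branch and its partners. Of these, 0 of 19 passed edgeR's test in the average over AHA (1 at an unadjusted p under 0.05, and 0 by DESeq2, which gave 2 of them no adjusted p). With 8.59% of all tested genes called, a count of 0 among so few genes does not set them apart. Of all tested genes, 20.5% had an unadjusted p under 0.05 in this average. At single AHA concentrations 4 of the 53 genes were lower on soft substrates at low, 3 at mid and 1 at high AHA, and 0 were higher. The test called 2.19% of all genes lower and 0.848% higher at low, 1.85% and 1.01% at mid, and 0.432% and 0.409% at high AHA. Of the pathway genes, Bmp6 passed at low AHA (−1.24 ± 0.36, adjusted p = 0.0251) but not in the average (−0.47 ± 0.21, adjusted p = 0.165), and it was named after its values were seen. It had only 9 to 14 counts in the 3 soft, low AHA libraries and 19 to 37 in the 3 stiff ones, and Txndc5 on the opposite strand covers 5.74% of its exon bases, so its counts are uncertain.

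**Figure D4:**
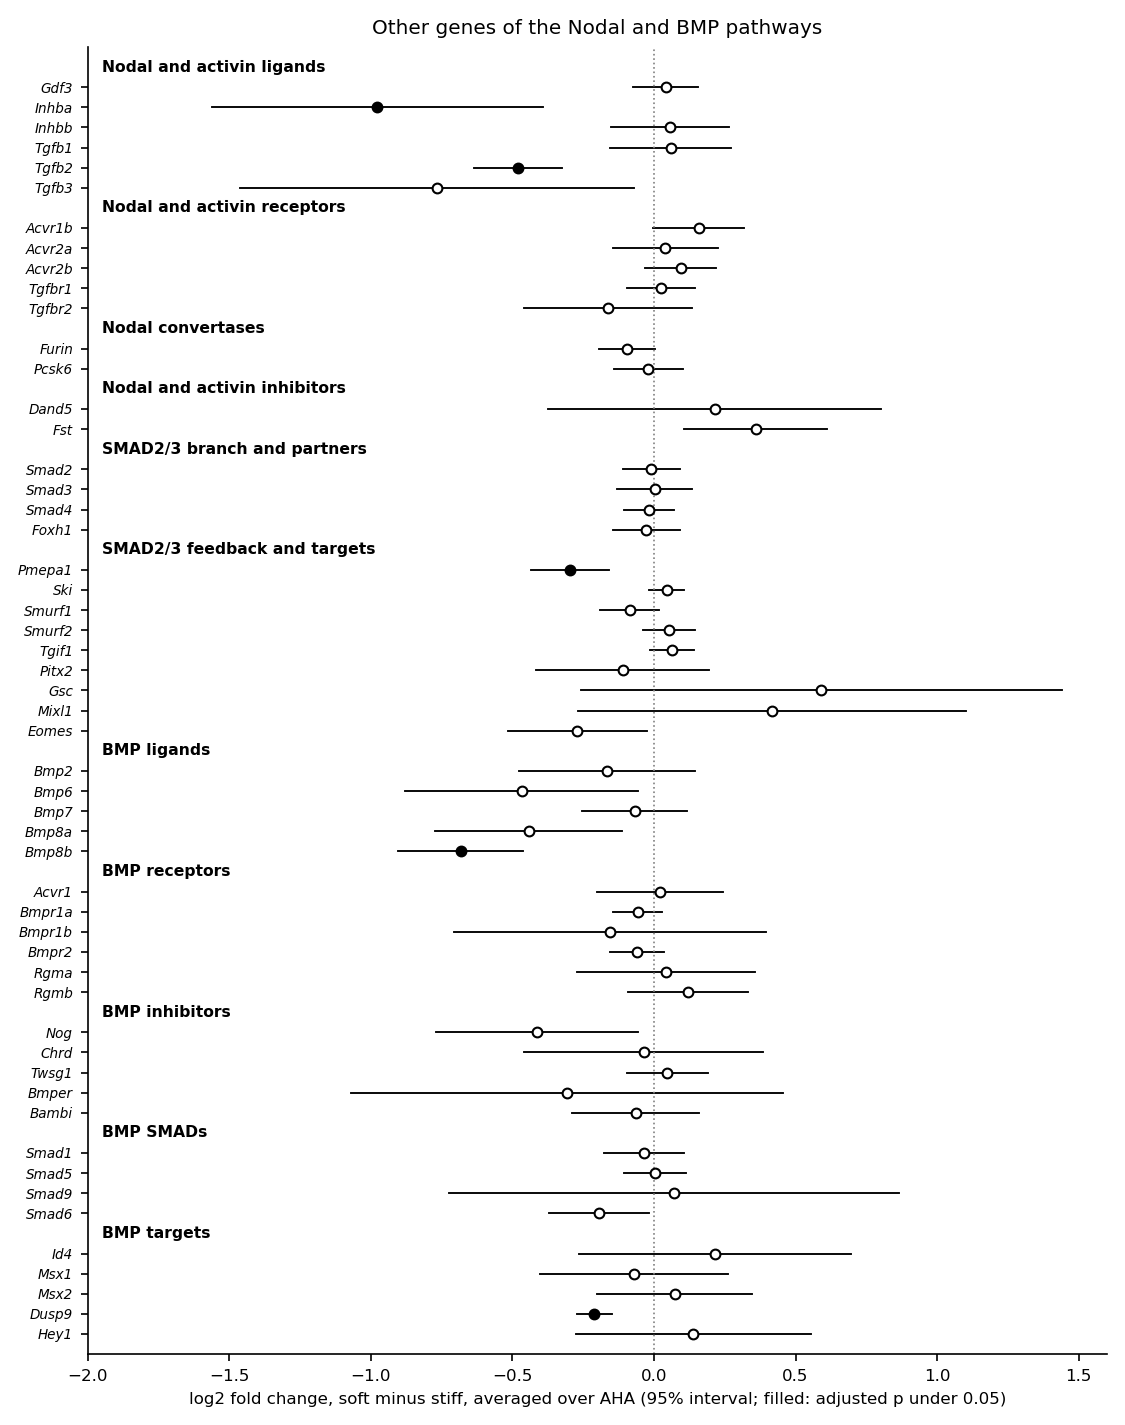
Log2 fold change, soft minus stiff averaged over AHA, of the 53 other pathway genes tested, grouped by role, with 95% intervals and filled points for an adjusted p under 0.05. The 5 filled points all lie left of 0, and receptors and SMADs have open points.

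For the 3 members that passed in the average, the genes most like them were found by Pearson's r of log2 CPM over the 17 libraries, among 9215 genes with a mean of at least 10 CPM. Libraries on the same substrate share their group mean in this measure, and the genes were picked as the highest of all. Lefty1 was most like Lama1 (r = 0.823), a laminin chain, Mcf2l (0.819) and Col9a2 (0.805). Id2 was most like Synpo2l (0.888), Dusp14 (0.868) and Ahcyl1 (0.861). Skil was most like Arrdc4 (0.843), Txnrd1 (0.825), a thioredoxin reductase, and Lin28a (0.821), an RNA-binding protein of pluripotent cells. The median r over all compared genes was between −0.0048 and 0.0020 for the 3 members.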

How the data were processed

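Total RNA of 18 libraries was sequenced from a pico-input mammalian kit. Per the submitters' processing notes and the study's methods, the authors trimmed reads with Trim Galore 0.4.4, mapped them to GRCm38/mm10 with GSNAP and obtained gene counts with HTSeq on Ensembl annotation. The deposited counts are raw and not normalised. Unassigned summary lines took 61.5 to 64.0% of each column and were left out of library sizes and tests, as were spike-in RNAs. Symbols, positions and exon lengths came from GENCODE M21 (GRCm38).

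Protein-coding genes kept by filterByExpr at a minimum count of 10 entered a robust quasi-likelihood fit in edgeR 4.0.16 (R 4.3.3) with TMM factors and 1 coefficient per group. P-values were adjusted by Benjamini-Hochberg over all 13438 tested genes within a contrast, and genes passed under 0.05. Standard errors came from the F statistic. A library was set aside when its ERCC share exceeded 1.5 times the median, as the study set aside libraries by this measure. CPM are TMM-scaled and relative to the counts of the tested genes, and the library set aside was scaled with all 18. Similar transcripts were searched with blastn. Alternatives were RLE size factors, DESeq2 1.42.0, a minimum of 2 counts, all annotated genes, all 18 libraries, only the groups compared, and each library left out. Other libraries set aside and summed copies were added after seeing the data. The members and gene lists were chosen with earlier results of these data known, and 2 genes of the pathway list are not reported here. Individually named were all members, listed pathway genes that passed in the average over AHA or in high minus low AHA (at most 12), the 3 genes most like each member that passed, and Bmp6, which was chosen after its values were seen. Groups followed the labels, which give no pairing or batch. Depth limits genes with few counts: Lefty1 had 60 to 139 counts in a library and Inhba 3 to 20.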

Additional observations from a re-analysis of the deposited data

Results flagged for a closer look

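In 20 groups of values, the 8 soft and the 9 stiff libraries for each of the 10 members, the library furthest out was compared with the range by Dixon's ratio, and 4 stood apart. Chance flags about 1 in 20 such groups. Library 3 of stiff, high AHA was the highest stiff library for both Lefty2 (19.1 CPM, the others 12.9 to 16.0 CPM) and Id2 (89.97 CPM, the others 74.3 to 81.4 CPM). Library 3 of soft, high AHA was the lowest soft library for Bmp4 (26.0 CPM, the others 30.1 to 33.6 CPM). Library 1 of soft, mid AHA was the lowest soft library for Id3 (45.8 CPM, the others 51.6 to 55.9 CPM).

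A signal was also found in a gene outside the tested set. The processed pseudogene Tdgf1-ps1 had 3007 counts over the 17 libraries, 129 to 220 in each, and its reads cannot be told apart from those of Tdgf1 where the transcripts are identical.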

How the results depend on the processing

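In the average over AHA the 3 member calls were found with RLE size factors, DESeq2, the minimum of 2 counts and all annotated genes. Leaving out 1 library at a time gave 0 to 4 members, 0 without library 3 of soft, high AHA. At high AHA, where 1 member passed, 0 passed by DESeq2, with all annotated genes fitted and with only the groups compared, 3 (Lefty1, Skil and Id1) with all 18 libraries or with soft, high AHA library 2 set aside in place of library 1, and 0 to 1 with 1 library left out. At mid AHA it was 0 to 1, Bmp4 passing without library 3 of stiff, mid AHA (adjusted p = 0.0488). The near-zero estimate for Nodal changed sign, from −0.0282 to 0.0441 with 1 library left out. No alternative gave a member call at low AHA, between AHA concentrations or in the interaction, and the other pathway genes that passed numbered 4 to 7. DESeq2 gave no adjusted p for Inhba. The cause of these changes was not tested. No paired analysis was possible because the labels give no replicate numbers shared between groups. Depth limits genes with few counts, such as Inhba with 3 to 20 in a library.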
